A study of Mus musculus with 18 samples.

Results

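The genes described here are 10 heat shock proteins and cardiac chaperones, out of 51435 genes measured in left ventricles of mice infused with angiotensin II (AngII). They are a fixed list of names: Hspa1a, Hspa1b, Hsph1, Dnajb1 and Hsp90aa1, which are cytosolic chaperones induced by heat and other stress, Hspa8, the constitutive member of the HSP70 family, the small heat shock proteins Hspb1, Hspb7 and Cryab, and Bag3, a co-chaperone. Poly(A) RNA was sequenced from 9 wild-type (WT) and 9 WWP2Mut/Mut mice, all of them male C57BL/6J littermates given AngII by minipump at 500 ng/kg/min for 28 days from 8 weeks of age. WWP2Mut/Mut mice are homozygous for a small germline deletion in Wwp2, which encodes a ubiquitin ligase of the HECT class, made by CRISPR/Cas9. The deletion disrupts the full-length and N-terminal isoforms, and the C-terminal isoform is not thought to be affected. No mouse without AngII was analysed here, so the comparison asks which chaperone transcripts differ with Wwp2 genotype in hearts that were all under pressor infusion. Each library is 1 mouse.

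Chaperones bind unfolded or partly folded proteins. HSP70 proteins do so in cycles of ATP hydrolysis that are driven by J-domain partners such as DNAJB1 and reset by nucleotide exchange factors such as HSPH1 and BAG3. HSP90 takes over clients that are close to their native fold, and small heat shock proteins hold unfolding proteins without using ATP. Under heat, hypoxia or an excess of unfolded protein, the transcription factor HSF1 binds heat shock elements, which are inverted repeats of the unit GAA, in front of the inducible genes. Cardiac muscle holds large amounts of small heat shock proteins even without stress, and BAG3 links them to HSP70 and to the removal of damaged filament proteins at the Z-disc.

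Wwp2, the targeted gene, checked the genotype labels. Its level was 3.83 to 6.01 TPM (transcript abundance per length, as the authors scaled it before some genes were removed, so that totals differ between mice) in WT mice and 1.19 to 3.00 TPM in WWP2Mut/Mut mice, with no overlap between the groups. In the edgeR quasi-likelihood fit with RNA concentration and sequencing lane as covariates, Wwp2 was lower in the mutants by a log2 fold change of -1.40 (SE 0.157, adjusted p = 0.00113). Total counts ranged from 24566994 to 37451087 per mouse with a median of 31168997. Cardiomyocyte markers (Myh6, Actc1, Tnnt2 and 6 others) summed to 44391 to 59031 TPM, and no gene of the cardiomyocyte, fibroblast, endothelial, immune or other cell type lists was at 0 throughout a genotype. The WT mouse 45-1 held the highest summed liver transcripts of the 18 mice at 384 TPM, the highest immediate early gene sum at 295 TPM and the lowest summed erythrocyte transcripts at 533 TPM.

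The 5′ flanking sequences of the chaperone genes show which of them carry the letters of a heat shock element close to their start. A RefSeq promoter window was found for 7 of the 10 genes, and 4 of those 7 held the paired unit GAANNTTC or TTCNNGAA in the 250 bases before the RefSeq start. Each of the 2 words is its own reverse complement, so 1 search covers both strands. The paired unit was present in 12.8% of 32851 promoter windows of the same length, 2 or more copies of it in 1.46%, and the 3-unit forms GAANNTTCNNGAA and TTCNNGAANNTTC in 0.466% of them and in none of the 7. The 5 windows below belong to the near-identical Hspa1a and Hspa1b, to Dnajb1, which rose and fell with both of them from mouse to mouse, and to Hsph1 and Hspb1, the other genes with a match. Capitals mark each paired unit, and the sequences run 5′ to 3′ on the strand of the gene (GRCm38.p6). They lie at chr17:34972157-34972406 (Hspa1a, minus strand), chr17:34959239-34959488 (Hspa1b, minus), chr5:149636337-149636586 (Hsph1, minus), chr8:83607925-83608174 (Dnajb1, plus) and chr5:135887669-135887918 (Hspb1, plus).
Hspa1a: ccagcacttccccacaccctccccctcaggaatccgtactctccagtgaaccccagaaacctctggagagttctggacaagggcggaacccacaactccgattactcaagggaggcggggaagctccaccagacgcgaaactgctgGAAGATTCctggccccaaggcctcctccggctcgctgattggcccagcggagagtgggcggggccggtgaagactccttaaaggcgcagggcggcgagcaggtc
Hspa1b: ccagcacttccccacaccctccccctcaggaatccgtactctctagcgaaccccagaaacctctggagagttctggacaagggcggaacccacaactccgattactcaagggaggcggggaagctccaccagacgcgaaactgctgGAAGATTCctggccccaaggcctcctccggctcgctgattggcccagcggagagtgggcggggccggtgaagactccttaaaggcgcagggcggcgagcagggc
Hsph1: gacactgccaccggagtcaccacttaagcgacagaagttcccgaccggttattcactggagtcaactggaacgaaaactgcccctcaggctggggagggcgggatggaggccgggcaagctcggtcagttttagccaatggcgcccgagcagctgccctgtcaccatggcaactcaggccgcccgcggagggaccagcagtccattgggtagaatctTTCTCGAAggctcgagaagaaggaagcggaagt
Dnajb1: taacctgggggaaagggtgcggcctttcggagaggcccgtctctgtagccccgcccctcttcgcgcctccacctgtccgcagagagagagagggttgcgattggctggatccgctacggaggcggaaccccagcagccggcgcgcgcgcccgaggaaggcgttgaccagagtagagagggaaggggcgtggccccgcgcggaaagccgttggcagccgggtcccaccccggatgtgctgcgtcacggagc
Hspb1: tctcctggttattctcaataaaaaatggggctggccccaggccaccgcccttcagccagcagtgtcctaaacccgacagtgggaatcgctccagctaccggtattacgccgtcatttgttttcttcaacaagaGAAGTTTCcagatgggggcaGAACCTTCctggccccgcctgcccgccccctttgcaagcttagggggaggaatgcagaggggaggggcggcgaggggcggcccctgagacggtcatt
In Hspa1a and Hspa1b the unit begins 104 bases before the start, and the windows are identical at 247 of 250 bases. Hsph1 has its unit 33 bases before the RefSeq start nearest to the gene's annotated start and 54 bases before a second one, and since the nearer start lies 40 bases inside the gene as Ensembl annotates it, the unit lies within that gene. Hspb1 has 2 units, at 117 and 97 bases. No match was found in the windows of Dnajb1, Hspb7 and Bag3, which says only that these letters are not in those windows.

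The 10 genes spanned almost 3 orders of magnitude in these hearts. Cryab, which encodes alphaB-crystallin, the major small heat shock protein of heart muscle, had a median of 2382 TPM over the 18 mice and was the highest of the 10 in every mouse. Hspb7, a small heat shock protein of striated muscle, followed with 767 TPM and Hspa8 with 756 TPM, and their ranges overlapped, so that their order differed between mice. Hspb1 had a median of 347 TPM, Bag3 of 73.2 TPM and Hsp90aa1 of 53.02 TPM, and Bag3 and Hsp90aa1 also changed places between mice. Hsph1 was seventh of the 10 in every mouse at 17.6 TPM. The lowest levels were those of Dnajb1 at 6.21 TPM, Hspa1a at 3.55 TPM and Hspa1b at 2.495 TPM, which traded the last 3 ranks. Hspa1b, the lowest of the 10, still stood at the 65.6th percentile of the 24804 genes tested and Cryab at the 99.9th.

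Spread between mice was narrowest for Cryab and widest for the inducible HSP70 genes. The coefficient of variation of TPM over the 18 mice was 11.6% for Cryab, 18.2% for Hspb1, 21.4% for Bag3, 24.995% for Hspa8 and 30.4% for Hspb7. It was 39.4% for Dnajb1, 42.6% for Hsp90aa1 and 44.0% for Hsph1. It reached 123% for Hspa1a and 144% for Hspa1b. Without WT 45-1 it was 74.5% for Hspa1a, 99.3% for Hspa1b and 34.7% for Dnajb1. In whole-tissue RNA, a lower level can come from fewer cells of a type or from less RNA per cell, and these cannot be told apart.

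**Figure D1:**
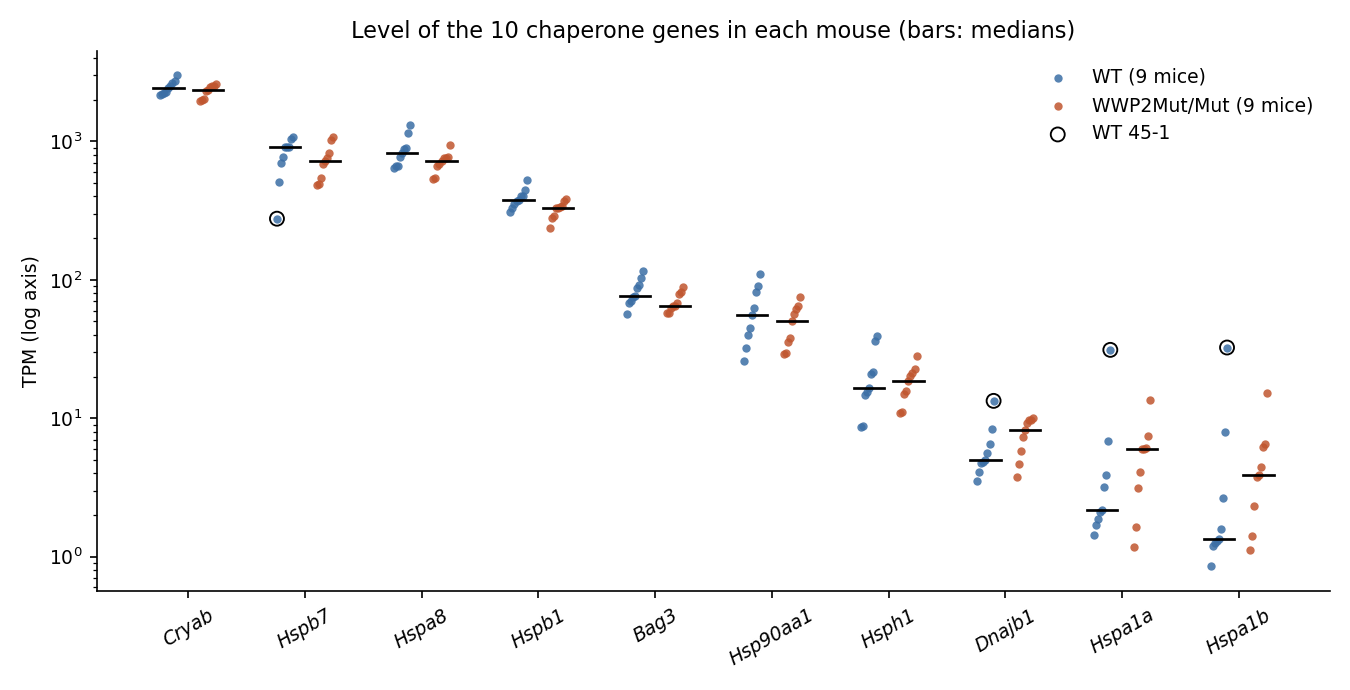
Level of each of the 10 chaperone genes in every mouse, in TPM on a log axis, with WT mice in blue and WWP2Mut/Mut mice in orange, 1 point per mouse, bars at the medians and rings around the WT mouse 45-1 where it stands far out. Cryab is highest in every mouse, and Hspa1a and Hspa1b are among the lowest with the widest spread, topped by that mouse at 31.2 and 32.4 TPM.

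Hspa1a and Hspa1b encode the stress-inducible HSP70 and differ in very few bases. Both are genes without introns on the minus strand of chromosome 17 (GRCm38), Hspa1a at 34969190 to 34972156 and Hspa1b at 34956436 to 34959238, 9951 bases apart. Their coding sequences were identical at 99.4% of aligned positions, and 38.1% of the 150-base windows of Hspa1a, the length of 1 read, occur unchanged in Hspa1b. Division of reads between the 2 genes is therefore uncertain, and their sum is given too. Hspa8 shared no such window, with a coding identity of 73.9%. Hspa1a took 47.8% to 67.9% of the summed counts of the pair, with a median of 58.5%.

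Inducible HSP70 transcripts were low in most WT hearts and higher in most mutant hearts, with 1 WT mouse far above all others. Hspa1a was 1.44 TPM in the lowest WT mouse, 2.19 at the median and 31.2 in the highest, against 1.17, 5.95 and 13.6 TPM in WWP2Mut/Mut mice. Hspa1b was 0.85, 1.34 and 32.4 TPM in WT and 1.11, 3.89 and 15.2 TPM in WWP2Mut/Mut mice. Summed, the pair was 2.29, 3.45 and 63.6 TPM in WT and 2.28, 10.4 and 28.8 TPM in the mutants. Nearly the whole mutant range lay within the WT range, although 7 of 9 mutant mice lay above the WT median of the sum. The mutant median of the sum was 3.00 times the WT median, while the mutant mean was 0.893 times the WT mean, with the highest value of all in the WT mouse 45-1. Without that mouse the highest WT sum was 14.9 TPM.

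Neither gene passed the genotype test. Relative to WT, the edgeR log2 fold change was 0.60 for Hspa1a (SE 0.498, 95% interval -0.44 to 1.65, p = 0.242, adjusted p = 1, n = 18 mice) and 0.76 for Hspa1b (SE 0.553, interval -0.40 to 1.92, p = 0.188, adjusted p = 1). For the sum it was 0.68 (SE 0.520, p = 0.205, n = 18 mice). These values depend on single mice, most of all on WT 45-1. Without it the edgeR log2 fold change became 1.32 for Hspa1a (SE 0.421, p = 0.00599), 1.49 for Hspa1b (SE 0.477, p = 0.00612) and 1.40 for the sum (SE 0.443, p = 0.00560, n = 17 mice), each still with an adjusted p of 1. Hspa1a was at 0.35, Hspa1b at 0.58 and the sum at 0.46 without WWP2Mut/Mut 8-2, at 0.44, 0.49 and 0.48 without WT 16-1, and at 0.92, 1.16 and 1.04 without WWP2Mut/Mut 53-1. Over all single mice left out, the ranges were 0.35 to 1.32 for Hspa1a, 0.49 to 1.49 for Hspa1b and 0.46 to 1.40 for the sum. Leaving out lane and RNA concentration from the model with all 18 mice gave 0.12, 0.10 and 0.11. The two-sided exact permutation test on log2(TPM + 1), which uses no covariates and understates the change of low genes, gave differences of 0.27 for Hspa1a (p = 0.603) and 0.41 for Hspa1b (p = 0.468). Without WT 45-1 the permutation differences were 0.62 (p = 0.103) and 0.81 (p = 0.0616). On mean TPM without the log, the mutants were lower, by -0.598 TPM for Hspa1a and -0.647 TPM for Hspa1b.

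Sequencing lane was examined beside this pair. The lane terms had an unadjusted edgeR p of 0.00911 for Hspa1a and 0.00192 for Hspa1b, with an adjusted p of 0.951 for each, and no gene of 24804 (0%) was called for lane while 935 had an unadjusted p under 0.05. Without WT 45-1 the unadjusted lane p was 0.0851 for Hspa1a and 0.00806 for Hspa1b in edgeR (n = 17 mice). The mean of summed Hspa1a and Hspa1b was 2.64 TPM in WT and 12.4 TPM in mutant mice in lane 1, 3.91 and 7.19 TPM in lane 3, and 4.49 and 6.66 TPM in lane 4. In lane 2, which held WT 45-1, it was 39.2 TPM in WT and 13.8 TPM in mutant mice. Each lane held 2 or 3 mice of a genotype, so these means carry no test. The edgeR log2 fold change was 0.21 for Hspa1a and 0.22 for Hspa1b with lane 1 left out, 1.27 and 1.57 with lane 2 left out, 0.33 and 0.56 with lane 3 left out and 0.71 and 0.76 with lane 4 left out, at adjusted p of 0.854 to 1.

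Dnajb1, which encodes a J-domain partner that delivers clients to HSP70, had the lowest edgeR p of the 10 genes. It lies on chromosome 8 at 83608193 to 83612653 (plus strand). Its level was 3.50, 4.99 and 13.4 TPM in the lowest, median and highest WT mouse and 3.78, 8.16 and 10.1 TPM in WWP2Mut/Mut mice. The highest mouse was again WT 45-1, the lowest was also WT, and 7 of 9 mutants were above the WT median. Dnajb1 had an edgeR log2 fold change of 0.59 (SE 0.230, 95% interval 0.11 to 1.08, p = 0.0191, adjusted p = 1, n = 18 mice). Without WT 45-1 it was 0.81 (SE 0.219, p = 0.00167, adjusted p = 1, n = 17 mice). The unadjusted p was above 0.05 without WWP2Mut/Mut 8-2 (0.46, p = 0.0514), without lane 1 (0.50, p = 0.0932), without lane 3 (0.44, p = 0.0701) and in all 3 limma settings, with n = 18 mice (0.38 to 0.44, p = 0.137 to 0.165). The exact permutation test of log2(TPM + 1) gave 0.29 (p = 0.217), and 0.42 without that mouse (p = 0.0459, adjusted p = 0.958). The direction held in each of 36 alternative settings of the count or log-TPM model, with log2 fold changes of 0.38 to 0.81.

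Hsph1 and Hsp90aa1 are further targets of the heat shock response. Hsph1 (chromosome 5, 149614287 to 149636376, minus strand), the HSP110 nucleotide exchange factor, was 8.59, 16.6 and 39.1 TPM in WT and 10.9, 18.6 and 28.0 TPM in WWP2Mut/Mut mice, with WT mice at both extremes. Its edgeR log2 fold change was -0.05 (SE 0.238, adjusted p = 1), with a 95% interval of -0.54 to 0.45, and its sign depended on the setting. Hsp90aa1 (chromosome 12, 110690605 to 110702728, minus strand), the inducible cytosolic HSP90, was 26.1, 55.4 and 110 TPM in WT and 29.1, 50.7 and 75.3 TPM in the mutants. The 3 highest WT mice were above every mutant and 1 WT mouse was below every mutant. The edgeR log2 fold change of Hsp90aa1 was -0.20 (SE 0.203, 95% interval -0.62 to 0.23, adjusted p = 1).

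Hspa8 (chromosome 9, 40800984 to 40810087, plus strand) encodes HSC70, which folds nascent chains and uncoats clathrin in unstressed cells. It measured 642, 818 and 1314 TPM in WT and 534, 722 and 936 TPM in WWP2Mut/Mut mice, and 1 of 9 mutants was above the WT median. The edgeR log2 fold change was -0.09 (SE 0.128, 95% interval -0.35 to 0.18, adjusted p = 1), and the exact permutation test of log2(TPM + 1) gave -0.27 (p = 0.0828), or -0.24 (p = 0.189) after rescaling TPM to the same total in every mouse. Bag3 (chromosome 7, 128523616 to 128546981, plus strand), the co-chaperone that joins HSP70 to small heat shock proteins, was 56.5, 76.7 and 115 TPM in WT and 57.2, 64.8 and 88.3 TPM in the mutants. Its edgeR log2 fold change was -0.15 (SE 0.104, 95% interval -0.37 to 0.07, adjusted p = 1), and the permutation test gave -0.24 (p = 0.0842). Neither gene passed a test at an adjusted p under 0.05.

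The small heat shock proteins were abundant in both genotypes. Hspb1 (chromosome 5, 135887919 to 135889563, plus strand), which binds actin filaments and unfolding proteins, was 311, 379 and 524 TPM in WT and 236, 330 and 383 TPM in WWP2Mut/Mut mice. The 4 highest WT mice lay above every mutant and 3 mutants below every WT mouse. Hspb1 had the lowest exact permutation p of the 10 genes, with a difference of -0.28 in log2(TPM + 1) (p = 0.0153, adjusted p = 0.905), and of -0.25 (p = 0.0338) once TPM was rescaled to the same total in every mouse. On counts the edgeR log2 fold change was -0.14 (SE 0.152, 95% interval -0.46 to 0.18, adjusted p = 1). On the TPM scale 76.1% of all 24804 genes were lower in the mutants, with a median of -0.04. After rescaling it was still 73.3%, with a median of -0.035, against 51.9% with a median of -0.01 in the edgeR fit.

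Cryab and Hspb7 did not pass the genotype test. Cryab was 2164, 2415 and 2998 TPM in WT and 1940, 2349 and 2576 TPM in WWP2Mut/Mut mice, with 3 WT mice above every mutant and 3 mutants below every WT mouse. It had an edgeR log2 fold change of 0.07 (SE 0.133, adjusted p = 1), and the 95% interval of -0.21 to 0.35 bounds the difference at these counts. Its permutation difference in log2(TPM + 1) had the opposite sign, -0.10 (p = 0.200). Cryab (chromosome 9, 50751325 to 50756636, plus strand) overlaps its neighbour Hspb2 on the other strand over 1030 bases, of which 252 are exonic in both, so reads there are uncertain where strand was not used in counting. Hspb7 (chromosome 4, 141420779 to 141425311, plus strand), which binds filamin C and restrains actin assembly in muscle, was 276, 903 and 1077 TPM in WT and 486, 724 and 1072 TPM in the mutants. The lowest mouse was WT 45-1, and 2 of 9 mutants were above the WT median. Hspb7 had an edgeR log2 fold change of -0.01 (SE 0.240, 95% interval -0.52 to 0.49, adjusted p = 1), and its sign, like that of Cryab, depended on the setting. Without WT 45-1 the value for Hspb7 was -0.24 (SE 0.144, adjusted p = 1).

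The WT mouse 45-1 was at the extreme of its genotype for most of the inducible set. It held the highest value of all 18 mice for Hspa1a (31.2 TPM), Hspa1b (32.4 TPM), Hsph1 (39.1 TPM), Dnajb1 (13.4 TPM) and Bag3 (115 TPM) and the lowest for Hspb7 (276 TPM). For Hspa8 it had 896 TPM, for Hsp90aa1 90.3 TPM, for Hspb1 353 TPM and for Cryab 2222 TPM, each inside the WT range. The WWP2Mut/Mut mouse 54-1 was highest of its genotype for Hspa1a and Hspa1b only, with 21.1 TPM of Hsph1, 57.2 TPM of Bag3 and 547 TPM of Hspb7.

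**Figure D2:**
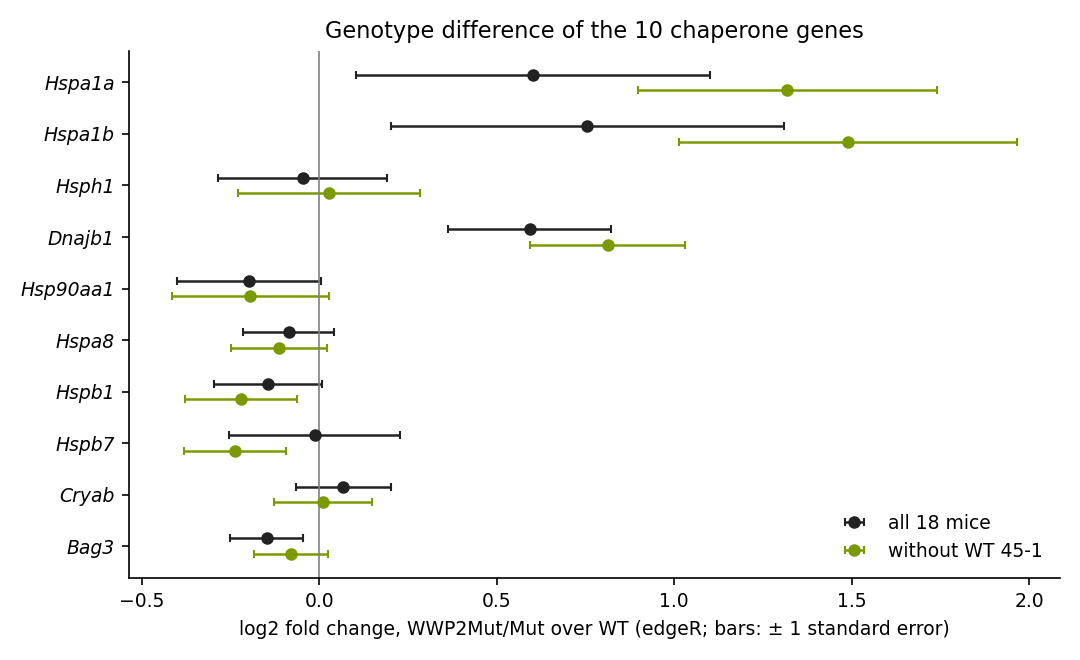
Genotype difference of each of the 10 genes as the edgeR log2 fold change (WWP2Mut/Mut over WT) with bars of 1 standard error to each side, for all 18 mice in black and without the WT mouse 45-1 in green. Hspa1a, Hspa1b and Dnajb1 lie right of 0 and move further right without that mouse, from 0.60, 0.76 and 0.59 to 1.32, 1.49 and 0.81, while the other 7 genes lie between -0.24 and 0.07 in both.

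None of the 10 genes was called for genotype at an adjusted p under 0.05 in edgeR, where 1 of 24804 genes (0.00403%), Wwp2 itself, was called. At an unadjusted p under 0.05, edgeR counted 1 of 10, Dnajb1, beside 3.66% of all genes. DESeq2 also called none of the 10 and had 1 of 10 at an unadjusted p under 0.05, beside 2.41% of all genes. The exact permutation test called none, with Hspb1 alone at an unadjusted p under 0.05, beside 4.4% of all genes. The median log2 fold change over the 10 was -0.03 in edgeR and that over all genes tested was -0.01. Without WT 45-1 the number at an unadjusted edgeR p under 0.05 was 3 of 10, namely Hspa1a, Hspa1b and Dnajb1, beside 2.96% of 24636 genes.

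Marker sums in the same mice are given beside these values. All 8 liver markers (Alb, Apoa1 and others) were lower in the mutants at an unadjusted edgeR p under 0.05, beside 3.66% of all genes, and none was called. Without WT 45-1 it was 1 of 8, beside 2.96%, and DESeq2 with all mice had 4 of 8, beside 2.41%. Their sum ranged from 27.0 to 384 TPM in WT and from 26.8 to 103 TPM in WWP2Mut/Mut mice. WT 45-1, the mouse with the highest Hspa1a, Hspa1b and Dnajb1, held the highest liver sum. The mutant with the highest Hspa1a and Hspa1b, 54-1, was at the top of the mutant range with 103 TPM. The median r of 7 liver markers with the Hspa1a and Hspa1b sum was 0.36 over 18 mice and 0.04 without WT 45-1, while within the 9 WWP2Mut/Mut mice r ran from 0.43 for Ttr to 0.57 for Trf. Of 6 atrial markers, 0 had an unadjusted edgeR p under 0.05 with all mice, and 3 were higher in the mutants at that level without WT 45-1, the setting with the larger Hspa1a and Hspa1b values, with a median log2 fold change of 1.10 and none called. The immediate early list, of genes that respond to acute stimuli within minutes, had a median r of 0.24 with that sum, and of 0.05 without WT 45-1. Summed cold-inducible Cirbp and Rbm3 were 88.0 TPM in WT 45-1, the highest of the 18 mice. The part of tissue composition or of handling in the chaperone values was not tested.

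From mouse to mouse, the pairs of genes that varied together fell into 2 sets. Pearson correlations of log2(TPM + 1) over the 18 mice were set against those of every gene with a median of at least 1 TPM, 11156 genes in all, with p-values from 100000 permutations that were adjusted over those genes for each of the 10. Of the 45 pairs, 9 were called and all 9 were positive, 18 had an unadjusted p under 0.05, and the median r was 0.37.

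The first set joined the inducible HSP70 genes to their J-domain partner. Hspa1a and Hspa1b had r = 0.97 (rho = 0.94, permutation adjusted p = 0.0372), and r was 0.93 without the mice farthest from the median, WT 45-1 and WWP2Mut/Mut 54-1. Hspa1a and Dnajb1 had r = 0.91 (rho = 0.94, permutation adjusted p = 0.0223) and 0.91 again without those mice. For Hspa1b and Dnajb1, r was 0.89 (rho = 0.91, permutation adjusted p = 0.0372) and 0.88 without them. The unadjusted p was 1e-05 for all 3 pairs, the smallest that these permutations can give. Hspa1a was correlated with few other genes, since 0.0717% of the 11156 were called, and the share was 0.0269% for Hspa1b and 0.108% for Dnajb1. Only 0.0179% of genes had an r with Hspa1a at least as high as that of Dnajb1. At this number of permutations a call needs at least 3 genes at the smallest p, and without WT 45-1 the same pairs had r of 0.95, 0.90 and 0.86 with adjusted p of 0.112, 0.0558 and 0.112 in the permutation test. The 3 pairs had r of 0.99, 0.95 and 0.96 within the 9 WT mice and of 0.95, 0.88 and 0.79 within the 9 WWP2Mut/Mut mice. The part of reads that fit both Hspa1a and Hspa1b in their r was not tested.

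**Figure D3:**
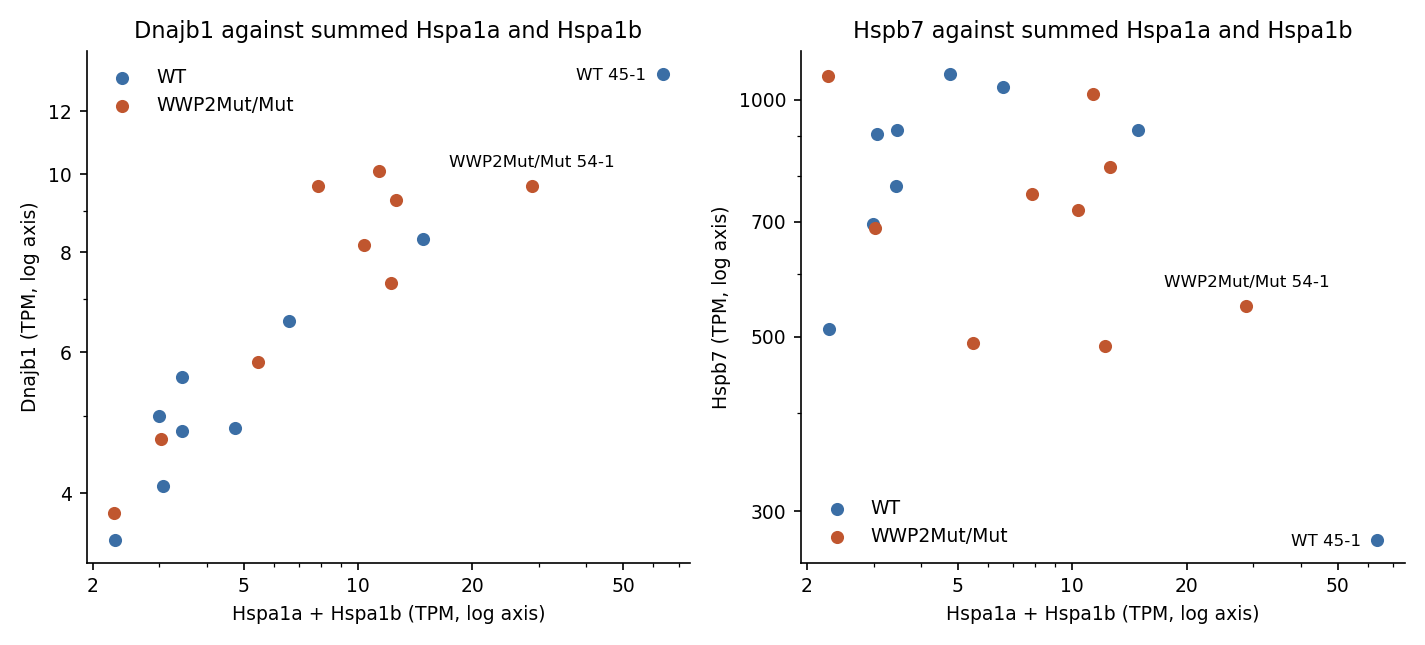
Dnajb1 (left) and Hspb7 (right) against summed Hspa1a and Hspa1b, in TPM on log axes, with 1 point per mouse, WT in blue and WWP2Mut/Mut in orange. Dnajb1 climbs with the sum in both genotypes, while the low Hspb7 of the WT mouse 45-1, 276 TPM at a sum of 63.6 TPM, stands alone at the lower right.

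Hsp90aa1, Hspa8, Hsph1 and Bag3 made up the second set. Hsp90aa1 and Hspa8 had r = 0.90 (rho = 0.92, permutation adjusted p = 0.000234, 0.89 without the 2 farthest mice), and Hsph1 and Hsp90aa1 had r = 0.84 (rho = 0.85, permutation adjusted p = 0.00421, 0.76 without them). Bag3 had r = 0.79 with Hsp90aa1, 0.75 with Hspa8 and 0.73 with Hsph1, and Hsph1 had r = 0.67 with Hspa8. These 4 genes were correlated with much of the transcriptome, for 62.3% of genes were called for Hsp90aa1, 57.2% for Hspa8, 45.3% for Hsph1 and 62.5% for Bag3. An r with Hsp90aa1 at least as high as that of Bag3 was found for 25.1% of genes, and an r with Hspa8 at least as high as that of Bag3 for 23.9%, so these pairs stand near the background. An r with Hsph1 at least as high as that of Hsp90aa1 was found for 0.206% of genes. The share in the other direction, with Hsp90aa1, was not computed, and 844 of the 11156 genes had the smallest possible permutation p with Hsp90aa1. On TMM-scaled log2 CPM, 4 pairs remained called, those of Hspa1a, Hspa1b and Dnajb1 and that of Hsph1 and Hsp90aa1, and the same 4 were called after gene body coverage was regressed out. On CPM the share of all genes called was 23.0% for Hsp90aa1, 2.29% for Hsph1, 0% for Hspa8 and Bag3, 0.125% for Hspa1a, 0.197% for Hspa1b and 0.143% for Dnajb1. After coverage it was 1.75%, 2.22%, 0% (Hspa8), 19.2% (Bag3), 0.287%, 0.466% and 0.368% in the same order. Within WT mice 5 pairs were called and within WWP2Mut/Mut mice 0, where 6 had an unadjusted permutation p under 0.05; each genotype holds 9 mice and the difference was not tested. Over the whole table, 44.1% of genes were called for Hsp90aa1, 38.7% for Hspa8, 22.7% for Hsph1 and 26.6% for Bag3 within WT, and 0%, 0%, 0% and 20.7% within WWP2Mut/Mut mice. Without WT 45-1 all 6 pairs of this set were still called, and Hspb7 joined them, with r = 0.66 to Hsp90aa1, 0.66 to Hspa8 and 0.78 to Bag3 (permutation adjusted p = 0.00905, 0.00826 and 0.00111). In that setting 60.7% of genes were called for Hspb7, 62.9% for Hsp90aa1, 57.5% for Hspa8, 61.7% for Bag3 and 41.5% for Hsph1, so these calls are near the background.

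The small heat shock proteins had no called pair. Hspb1 and Cryab had r = 0.84 (rho = 0.82, permutation p = 2e-05, adjusted p = 0.112) and 0.69 without the 2 farthest mice, and 0.0179% of genes had as high an r with Hspb1. Hspb7 and Cryab had r = 0.56 (permutation p = 0.0150, adjusted p = 0.225). Of all genes, 0% were called for Hspb1, 0.143% for Cryab and 4.29% for Hspb7. Hspb7 had negative correlations with the inducible HSP70 genes, with r = -0.52 to Hspa1a and -0.56 to Hspa1b (rho = -0.17 and -0.27, permutation adjusted p = 0.998 and 0.856), and these relations rested on 2 mice, since r was 0.05 and -0.04 without WT 45-1 and WWP2Mut/Mut 54-1.

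**Figure D4:**
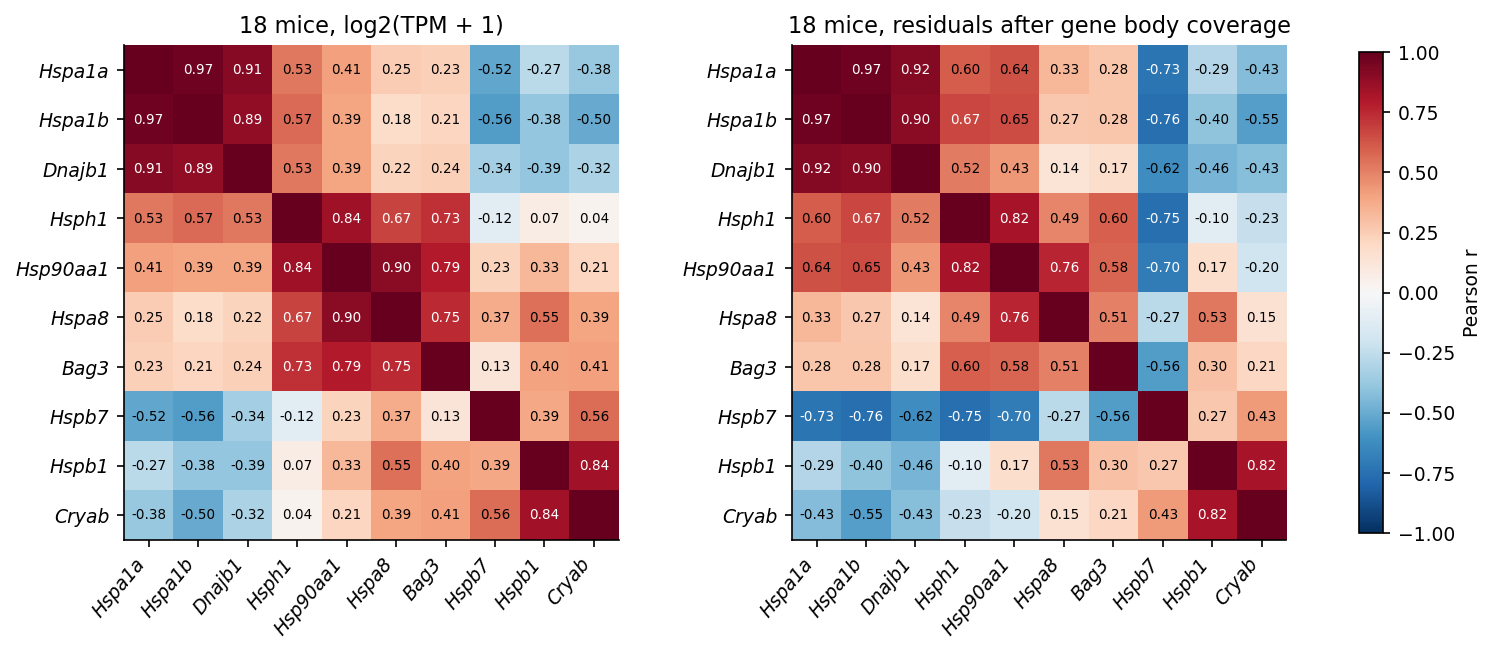
Pearson r of log2(TPM + 1) between the 10 chaperone genes over 18 mice, before (left) and after (right) gene body coverage was regressed out, with blue for negative and red for positive r. On the left, Hspa1a, Hspa1b and Dnajb1 form 1 block with r of 0.89 to 0.97, and Hsph1, Hsp90aa1, Hspa8 and Bag3 form another with r of 0.67 to 0.90, and on the right the negative r of Hspb7 with Hspa1a (-0.73) and Hspa1b (-0.76) were not called (permutation adjusted p = 0.210 each) and were not recomputed without WT 45-1 and WWP2Mut/Mut 54-1.

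Outside the 10, the genes most like summed Hspa1a and Hspa1b were picked by r among 11147 genes, as a description. Pnrc1, a nuclear receptor coactivator, came first with r = 0.90, then Rasd1, a glucocorticoid-induced small GTPase, and Dedd2 with 0.85 each, Cebpd, a transcription factor of acute responses, with 0.84, and Hand2 and Sik1 with 0.83. Errfi1 (0.81), Arl4a (0.80), Zfp623 (0.79) and Tsc22d3 (0.79), which encodes the glucocorticoid-induced leucine zipper, completed the first 10. Their levels share libraries and depth with the HSP70 genes. Of those 10, 7 stayed among the first 10 without WT 45-1. The lowest r were -0.71 for Med9os, Aplnr, Ccl12 and Gm26712 and -0.70 for Slc6a6. Dnaja1, another J-domain partner of HSP70, had r = 0.79, the highest of 17 other J-domain genes. The median r of that list was 0.08, or -0.02 without WT 45-1, and its lowest was -0.33. Hsf1, the gene of the heat shock factor itself, had r = 0.13, near the median of 0.09 over all genes. For Hsf1 r was 0.54 within WT mice, -0.37 within WWP2Mut/Mut mice and -0.22 without WT 45-1, and these differences were not tested.

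The wider chaperone network did not pass the genotype test. Of 97 other chaperone and proteostasis genes 96 were tested and edgeR called 0, with 38 above and 58 below 0 and a median log2 fold change of -0.05. An unadjusted p under 0.05 was found for 1 gene with a higher and 3 with a lower value in the mutants, and DESeq2 called 0 with 3 lower ones under 0.05. These 4 of 96 in edgeR stand near the 3.66% of all genes, and the 3 of 96 in DESeq2 near its 2.41%. The 3 in edgeR were Hsf2, a second heat shock factor (-0.28, SE 0.101, p = 0.0129, n = 18 mice), Pdia4, a disulphide isomerase of the endoplasmic reticulum (-0.40, SE 0.164, p = 0.0254), and Flnc, a filamin that BAG3 helps to turn over (-0.43, SE 0.203, p = 0.0499). Hsf5, the gene with the higher value, was at most 0.02 TPM in any mouse. Without WT 45-1, 0 of the 96 were higher and 6 lower at an unadjusted edgeR p under 0.05, beside 2.96% of all genes, and 0 were called. Hsf1 was 13.2 TPM at the WT median and 11.3 TPM at the mutant median, with a log2 fold change of -0.08 (SE 0.0974).

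Each family is given by its counts in edgeR. Among other HSP70 and HSP110 genes 4 of 9 were above 0, with Hspa13, a microsomal HSP70, at -0.27 and the smallest p of the list. Both other HSP90 genes were below 0, Hsp90ab1, the constitutive cytosolic form, at -0.06 and the mitochondrial Trap1 at -0.07. Among small heat shock proteins 3 of 6 were above 0, with Hspb8, the partner of BAG3, at -0.09 and Hspb2 at 0.19. The J-domain list had 8 of 17 above 0 with a median of 0.00, the HSP90 and HSP70 co-chaperones 8 of 15 with a median of 0.01, the BAG family 2 of 5 and the chaperonins 5 of 10 with a median of 0.00. BAG3 partners and clients had 4 of 9 above 0, with the ubiquitin ligase Stub1 at 0.19. Endoplasmic reticulum chaperones and unfolded protein response genes had 2 of 20 above 0 and 18 below, where 51.9% of all genes were below, a median of -0.10 and 1 of 20 at an unadjusted p under 0.05, beside 3.66% of all genes. Without WT 45-1 it was 3 of 20, all lower, beside 2.96% of all genes, with a median of -0.16 and 0 called. In that list were Hspa5, the HSP70 of that compartment, at -0.11 (SE 0.138) and the collagen chaperone Serpinh1 at -0.22. Cirbp and Rbm3, RNA-binding proteins induced by cold, were at 0.04 and 0.10.

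Gene body coverage was called for 1 of the 10 genes and RNA concentration for none. The sample sheet gives a gene body coverage fraction, without a definition, of 0.0288 to 0.0540 per mouse. In a model of genotype and this fraction, edgeR called 8715 genes (35.1%) and 1 of the 10. That gene was Hsp90aa1, with a log2 change of -0.27 per 0.01 of the fraction (SE 0.0849, adjusted p = 0.0153). Hsph1 had -0.30 (SE 0.116, adjusted p = 0.0512) and Hspb7 -0.20 (SE 0.108, adjusted p = 0.171), while Hspb1 and Cryab had 0.13 each (adjusted p = 0.123 and 0.0952). Without WT 45-1 the calls were 37.1% of genes and 4 of the 10, Hsph1, Hsp90aa1, Hspb7 and Cryab. Hspa8, Bag3 and Dnajb1 had slopes between -0.05 and 0.03. The widest errors were those of Hspa1a at 0.24 (SE 0.393) and Hspa1b at 0.36 (SE 0.491), which both became -0.01 without WT 45-1. RNA concentration gave 0 calls (0%) in edgeR, where 781 genes and none of the 10 had an unadjusted p under 0.05.

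**Figure D5:**
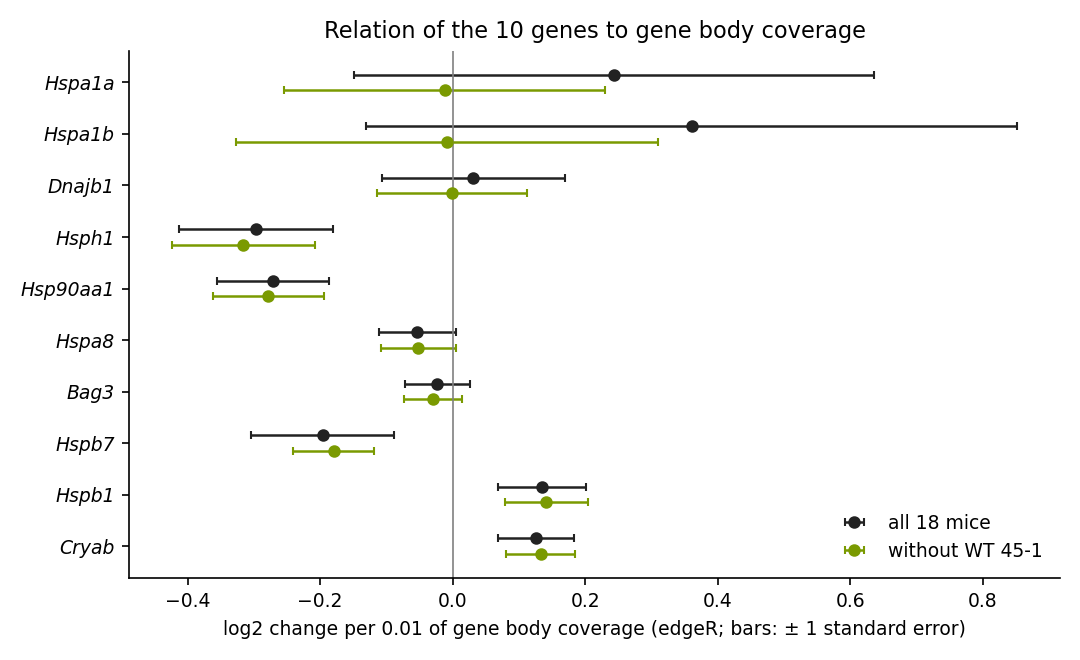
Slope of each of the 10 genes on gene body coverage, as the edgeR log2 change per 0.01 of the coverage fraction with bars of 1 standard error to each side, for all 18 mice in black and without the WT mouse 45-1 in green. With all mice Hsp90aa1 (-0.27) is the 1 gene called, and Hspb1 and Cryab slope the other way at 0.13.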

How the data were processed

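Poly(A) libraries from 18 left ventricles were prepared with a strand-specific kit and sequenced as paired reads of 150 bases. Per the labels and the study's methods, the authors aligned reads to the mouse genome (m38, Ensembl annotation 89) with STAR 2.5.2b, quantified genes with RSEM 1.2.31 and removed rRNA and mitochondrial genes; whether counting used strand is not given in the sources used here. They deposited RSEM expected counts (5.11% of values not whole) and TPM, which sum to 671770 to 826381 per mouse. The sample sheet that the authors deposited holds lane, RNA concentration, an absorbance ratio (not used) and a gene body coverage fraction. Symbols came from a gene table, which matched 51242 of 51435 IDs.

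Expected counts were rounded and tested with edgeR 4.0.16 (quasi-likelihood, TMM) in R 4.3.3, for genes with more than 1 count in all, with genotype, centred RNA concentration and lane in the model and Benjamini-Hochberg adjustment over all 24804 genes, called at 0.05. log2(TPM + 1) was compared by two-sided exact permutation of all divisions into 9 and 9 mice (no covariates), and correlations used 100000 permutations. Alternatives were DESeq2 1.42.0, limma 3.58.1 on log2 TPM with a pseudocount of 1 or 0.1, other scalings, filters and covariates, and leaving out each mouse or lane. Leaving out WT 45-1 from the TPM, correlation, list and coverage results, WT 45-1 with WWP2Mut/Mut 54-1, and WT 45-1 without covariates, as well as the alternatives for the Hspa1a and Hspa1b sum, were chosen after seeing the data. Python 3.11.15 was used for the permutations. Scripts were tested on simulated data.

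The 10 genes and the other gene lists were chosen with earlier results of these data known. Beyond the 10 and Wwp2, named genes are up to 4 per list with the smallest edgeR p, 5 preset genes and the 10 highest and 5 lowest r with summed Hspa1a and Hspa1b; Dnaja1 was named after its value was seen. Mice of the groups compared share no number, and each is taken as a separate animal. The study gives 9 mice per genotype in its methods and 8 in its results text, and the files hold 9. One WT mouse (43-3) has an RNA concentration of 1.68 ng/µl on the sheet, against 88.6 to 320.9 in the others; it was kept.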

Additional observations from a re-analysis of the deposited data

Results flagged for a closer look

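In 4 of 20 tests, a mouse stood apart from the rest of its genotype by Dixon's gap-to-range ratio for 9 mice at the 95% level. Chance alone would pass it in about 1 in 20 groups only if values were normally distributed. TPM of Hspa1a and Hspa1b were skewed in WT mice, with means of 6.05 and 5.62 against medians of 2.19 and 1.34, so that rate does not hold for them. The WT mouse 45-1 did so for 3 genes that vary together and are therefore not independent: its Hspa1a level was 31.18 TPM, with the next WT mouse at 6.88 TPM, its Hspa1b level was 32.42 TPM, with the next at 7.98 TPM, and its Dnajb1 level was 13.35 TPM, with the next at 8.31 TPM. In the mutant group, mouse 54-1 had 15.2 TPM of Hspa1b, with the next mutant at 6.51 TPM. Both mice were sequenced in lane 2, and the part of the lane in these values was not tested.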

How the results depend on the processing

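None of the 10 genes reached an adjusted p under 0.05 for genotype in any setting tried, and Bag3, Dnajb1, Hspa1a, Hspa1b and Hspa8 kept their sign in each edgeR, DESeq2 and limma setting, although their size moved, from -0.32 to -0.06 for Bag3, 0.38 to 0.81 for Dnajb1, 0.12 to 1.32 for Hspa1a, 0.10 to 1.57 for Hspa1b and -0.27 to -0.0016 for Hspa8 (the last without WT 25-3). The number of genes called over the whole table was 1 with all mice, 2 in limma on log2(TPM + 1), 2 with lane 3 left out, 0 with lane 2 or lane 4 left out (681 and 733 at an unadjusted edgeR p under 0.05), and 1 to 2 when each mouse was left out. Wwp2 was then at -1.30 without lane 2 and -1.38 without lane 4. Hsph1 changed sign without covariates (0.027), with lane alone (0.016), with coverage added (0.10), without lane 2 (0.042) or lane 3 (0.044), without WT 45-1 and WWP2Mut/Mut 54-1 (0.0082) and without covariates and WT 45-1 (0.10), and leaving out each mouse gave -0.15 to 0.19. Hspb7 did so with upper-quartile factors (0.0088), without covariates (0.022), with lane alone (0.044), with coverage added (0.048) and without lane 1 (0.030) or lane 4 (0.26), with -0.24 to 0.13 over single mice left out. Cryab was at -0.11 in all 3 limma settings and without lane 2, with -0.078 to 0.14 over single mice left out, Hsp90aa1 ranged from -0.28 to 0.014 in the same way, and Hspb1 was at 0.045 without lane 1. On TPM, Hspa1a (-0.598) and Hspa1b (-0.647) changed sign without the log, and Hsph1 without WT 45-1 (0.093). Limma on TPM moved the median of all genes to -0.11 (pseudocount 0.1) and -0.14 (median TPM of at least 1), with 73.7% to 87.7% of genes lower in the mutants against 51.9% in edgeR. Called pairs of the 10 genes fell from 9 to 4 on TMM CPM, 4 after coverage, 5 within WT and 0 within WWP2Mut/Mut mice. The r of Hsp90aa1 and Hspb7 became -0.092 on CPM and -0.70 after coverage, that of Hspa8 and Hspb7 -0.27 after coverage, and that of Hspb7 and Bag3 -0.35 on CPM, -0.56 after coverage and -0.13 within WT. Genes of the 10 called for coverage rose from 1 to 4 without WT 45-1. Causes of these changes were not tested.

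No paired analysis was possible because mice of the groups compared share no replicate number. With 9 mice per genotype, the 95% interval of Hspa1b spans -0.40 to 1.92 on the log2 scale and that of Hspa8 -0.35 to 0.18, and these mice bound the differences no more closely than that.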
